A study of Drosophila melanogaster with 8 samples.

Results

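To describe how the brain cells outside the fru population differ between the sexes, the GFP-negative (fru-) cells of male brains were compared with those of female brains. These are 4 of the 8 RNA-seq libraries of the study, male fru- replicates 1 and 2 and female fru- replicates 1 and 2. They were chosen by their labels alone, and no measured value entered the choice. Genes on the X were separated from genes on the autosomes by the chromosome that the deposited tables give for each gene. The study sorted cells from dissociated central brains to ask what the male-specific transcription factor Fruitless does in the neurons that make it. The other 4 libraries hold GFP-positive (fru+) cells of males and of females, and they are used here only where the sex difference in fru- cells is set against that in fru+ cells.

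All 4 groups have the same labelled strain, w1118, and genotype, with UAS-mCD8-GFP over MB247-Gal80 on one chromosome and Fru-GAL4 over a plus sign on another. The study's methods give the partner of FruP1-GAL4 in the sequenced flies as a balancer, TM2 or TM6B. The flies were adults of 2 to 7 days, and the optic lobes were removed before dissociation. GFP marks cells in which the fruP1 promoter drives GAL4, and GAL80 blocks it in the gamma Kenyon cells of the mushroom body. The fru- cells are therefore every viable cell without GFP, gamma Kenyon cells included, a mixture of many types. Brains of several flies of a sex were pooled for each library. Each replicate number stands for one sorting session that both sexes shared, with RNA extraction in parallel.

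In Drosophila, males have a single X and females a pair. The male-specific lethal (MSL) complex, made of proteins and of the noncoding RNAs roX1 and roX2, binds the male X and raises its transcription, and it does not form in females because the Sex-lethal protein blocks production of its subunit MSL-2. The same protein starts the splicing cascade through transformer that sets the sex-specific forms of doublesex and fruitless.

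Levels are given in TPM, a length-scaled share of a library's RNA (transcripts per 1000000) that the authors computed with StringTie for 17137 reference genes. The tables hold no read counts, so no counting error can be given for a single value. Depth, which follows from dividing coverage by FPKM, was 4.07 and 4.93 Gb of aligned sequence in male fru- libraries and 3.21 and 3.16 Gb in female fru- libraries. Spearman's rho across the tested genes was 0.983 between the male and 0.971 between the female fru- replicates, and 0.970 to 0.979 between libraries of different sex. Genes are not independent replicates in these correlations. With 2 libraries against 2, the smallest two-sided p of an exact permutation test is 0.333, so genes were tested with limma, a linear model that shares the spread across genes, on log2(TPM + 1). A gene is called differentially expressed at a Benjamini-Hochberg adjusted p under 0.05 over the 10111 tested genes, and log2 fold changes are of males over females on that scale, which understates the change of genes at low levels.

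The labels call the tissue central brain neuron, and markers of neurons and of glia were both found in the fru- libraries. The synaptic vesicle gene nSyb was listed at 2580 and 2462 TPM in male, against 1466 and 1538 TPM in female fru- cells, and all 10 neuronal markers were above the threshold for testing. The 13 glial markers were above it as well. The female fru- replicates stood apart from each other. Summed over the 13 glial markers, the level was 2030 and 1803 TPM in male fru- cells against 2686 and 1021 TPM in female fru- cells, and summed over the 10 neuronal markers it was 10587 and 8992 TPM against 4757 and 8925 TPM. In bulk RNA, fewer cells of a type and less RNA per cell cannot be told apart. Several genes that are higher in fru+ cells were higher in female fru- replicate 2 than in replicate 1. Dsk, a neuropeptide gene, was at 0.846 TPM in replicate 1 and 43.8 TPM in replicate 2, and fru at 3.75 and 15.1 TPM. The neuropeptide genes Hug, Mip and CCAP and the serotonin synthesis gene Trh were also higher in replicate 2. The neuropeptide gene Ms went the other way, at 444 and 270 TPM.

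The sex contrast in fru- cells gave 11 differentially expressed genes, of which 8 were higher and 3 lower in males, which is 0.109% of the tested genes. By direction these are 0.0791% and 0.0297%. Of the 11 genes, 10 lie on the X, and the exception is the neuropeptide gene Trissin. At an unadjusted p under 0.05 there were 505 genes (4.99%), 363 of them higher (3.59%) and 142 lower (1.4%) in males. When the libraries were rescaled by the median of ratios, the 505 became 580 and the split 311 higher to 269 lower, so the excess of male-higher genes at this looser level depends on the scaling. Without female fru- replicate 1 the count of called genes was 17, and without female fru- replicate 2 it was 18. Without either male fru- library it was 6.

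The RNAs of the dosage compensation machinery came first by p. Positions are those of the files, in dm6. roX1 (X:3857230-3862697, minus strand) reached 5067 and 4423 TPM in male libraries, against 7.32 and 6.60 TPM in the female ones, which gave a log2 fold change of 9.22 with a standard error (SE) of 0.30 (limma adjusted p = 4.25e-07). roX2 (X:11579065-11580432, plus strand) was listed at 785 and 639 TPM in male and 1.87 and 0.548 TPM in female fru- cells, which gave a log2 fold change of 8.39 with an SE of 0.30 (limma adjusted p = 6.03e-07). The ratio of the mean TPM was 681 for roX1 and 589 for roX2, and the sexes did not come near each other. The 2 RNAs together made up 0.596% and 0.514% of all TPM of reference genes in the male libraries, against 0.000934% and 0.000732% in the female libraries. Both markers of male cells thus matched the labels of all 4 libraries.

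No other gene of this machinery passed the threshold. msl-2, whose protein is made only in males, was listed at 48.6 and 58.6 TPM in male fru- cells, against 23.6 and 29.2 TPM in female fru- cells. Its libraries did not overlap and its log2 fold change was 1.00 (standard error 0.26), without passing the threshold (limma unadjusted p = 0.0034, adjusted p = 0.614). Unr, an RNA-binding protein that helps repress msl-2 in females, was listed at 188 and 94.4 TPM in males and 20.6 and 84.7 TPM in females (male over female 1.64 on the log2 scale, limma unadjusted p = 0.0318, adjusted p = 0.922). On the log2 scale the difference was 0.65 without female fru- replicate 1 and 2.64 without female fru- replicate 2. The scaffold msl-1 was at 12.7 and 14.8 TPM in males and 9.07 and 13.7 TPM in females, the helicase mle at 101 and 94.9 against 76.8 and 104 TPM, the chromodomain gene msl-3 at 21.3 and 26.4 against 23.9 and 23.0 TPM, and the histone acetyltransferase mof at 8.43 and 13.6 against 9.15 and 14.0 TPM. Clamp, which guides the complex to the X, and the kinase JIL-1 also lay within the spread of the libraries. In all, 2 of the 10 genes of this list were called, the roX genes, beside 0.109% of all tested genes, and 4 had an unadjusted p under 0.05, all higher in males, beside 3.59% of all tested genes.

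Besides the roX genes, 6 genes of the X were higher in male fru- cells. CG32625 (X:13756164-13756826, minus strand) was listed at 16.8 and 21.6 TPM in males and at 0 in both female libraries (limma adjusted p = 0.000619). brv3 (X:2622069-2624575, minus strand), a member of the brivido family of TRP-type channels, was listed at 14.5 and 12.5 TPM in males and at 0 in both female libraries (limma adjusted p = 0.00103). No fold is given for either gene, because a listed 0 without counts sets no lower bound. Dok (X:7324214-7328806, plus strand), an adaptor that acts downstream of tyrosine kinases, was listed at 10.4 and 10.1 TPM in males and 0.129 and 0.0962 TPM in females, which gave a log2 fold change of 3.34 with an SE of 0.34 (limma adjusted p = 0.0030). CG4586 (X:6969918-6972265, plus strand) was at 7.58 and 10.9 TPM in males against 0 and 0.0703 TPM in females (log2 fold change 3.29, standard error 0.37, limma adjusted p = 0.00668). All 4 genes were at or close to 0 in females and at 7.58 to 21.6 TPM in males. Dok and CG4586 did not pass the threshold when a male fru- library was left out, with limma adjusted p = 0.0756 and 0.0783 for Dok and 0.0756 and 0.156 for CG4586, nor with only the 4 fru- libraries in the fit (0.0701 and 0.102).

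The other 2 were less extreme. CG14195 (X:19208694-19212082, minus strand) was listed at 13.9 and 15.8 TPM in male and 1.18 and 1.61 TPM in female fru- cells, which gave a log2 fold change of 2.73 with an SE of 0.39 (limma adjusted p = 0.0410). The cytochrome P450 gene Cyp4d2 (X:2176006-2178728, plus strand) was listed at 10.2 and 12.6 TPM in males and 1.18 and 0.396 TPM in females, which gave a log2 fold change of 2.82 with an SE of 0.41 (limma adjusted p = 0.0460). These 2 lay just inside the threshold, and neither passed it once replicate was entered as a block (limma adjusted p = 0.121 for CG14195 and 0.103 for Cyp4d2). Leaving out either male fru- library raised both adjusted p-values to between 0.304 and 0.495.

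On the X, 2 genes were lower in males. comt (X:13259021-13262488, plus strand) encodes the N-ethylmaleimide-sensitive fusion factor, the ATPase that takes SNARE complexes apart after vesicle fusion. It was listed at 14.2 and 19.8 TPM in male, against 453 and 417 TPM in the female libraries, which gave a log2 fold change of -4.62 with an SE of 0.23 (limma adjusted p = 8.85e-06). Its mean level in females was 25.6 times that in males. Nsf2, the second fly gene for this factor, on 3R, was at 29.1 and 23.6 TPM in males and 25.2 and 30.5 TPM in females, and it was looked up after the values of comt were seen. Uros1 (X:8898554-8900264, minus strand) was listed at 11.9 and 11.4 TPM in males and 50.8 and 41.0 TPM in females, which gave a log2 fold change of -1.88 with an SE of 0.24 (limma adjusted p = 0.0161). Uros1 passed the threshold in 9 of 17 alternatives, with a log2 fold change of -2.03 to -1.73. It did not pass without a filter on low values, nor with only the 4 fru- libraries, with or without the replicate block. Neither did it pass without female fru- replicate 1, without either male fru- library or without either male fru+ library.

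**Figure D1:**
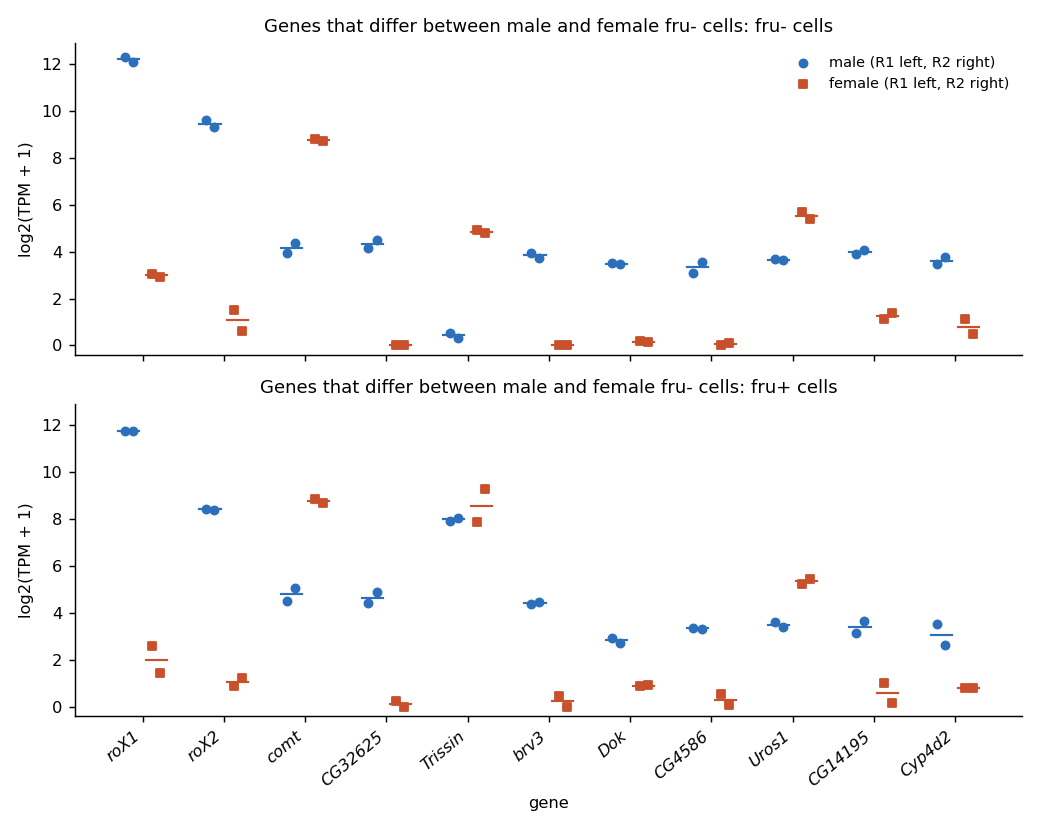
Level of the 11 differentially expressed genes in each library, as log2(TPM + 1), in fru- cells (top) and fru+ cells (bottom); circles are male and squares female libraries, and bars are means of 2. Male and female points are apart for all 11 genes at the top, and at the bottom for all except Trissin, which was listed at 243 and 268 TPM in males and 234 and 617 TPM in females.

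The sex difference of the X-linked genes was compared with that in fru+ cells, which came from the same brains. Between male and female fru+ cells limma called 9 genes (0.089%), 7 higher (0.0692%) and 2 lower (0.0198%) in males. In fru+ cells, comt was listed at 21.9 and 32.8 TPM in males and 458 and 411 TPM in females, close to its levels in fru- cells. CG32625 was at 20.4 and 28.6 TPM in male and 0.179 and 0 TPM in female fru+ cells, and brv3 at 19.98 and 20.8 against 0.356 and 0 TPM. Uros1 was at 11.1 and 9.58 TPM in male and 36.8 and 42.9 TPM in female fru+ cells. Among the 10 called X-linked genes the contrast of Dok was the most unequal between the 2 kinds of cell, with 6.70 and 5.52 TPM in male and 0.854 and 0.870 TPM in female fru+ cells. The difference between the 2 sex differences was 1.41 for Dok (standard error 0.48, limma unadjusted p = 0.0148, adjusted p = 0.999) and 1.03 for roX2 (standard error 0.43, limma unadjusted p = 0.0376, adjusted p = 0.999). Over all genes, limma called 0 genes for that difference, with 237 (2.34%) at an unadjusted p under 0.05, so for no X-linked gene was a sex difference shown to be particular to fru- cells.

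The genes next to the called genes were examined in the same libraries. The libraries carry no strand, so reads where genes on opposite strands overlap cannot be assigned to either. brv3 overlaps Seipin, a gene of lipid droplet formation on the opposite strand, which was listed at 5.78 and 8.35 TPM in male and 1.32 and 3.05 TPM in female fru- cells (log2 fold change 1.37, limma adjusted p = 0.867). Dok overlaps CG1677, at 83.9 and 82.8 TPM in males and 71.5 and 80.7 TPM in females, and roX1 overlaps ec. HDAC4, 199 bp from comt, was at 21.5 and 19.4 TPM in males and 20.8 and 19.97 TPM in females, while mew on its other side, an integrin subunit 531 bp away, was at 12.3 and 11.9 against 6.20 and 7.14 TPM (log2 fold change 0.78, limma adjusted p = 0.922). Moe, 222 bp from Uros1, and CG3040, 59 bp from CG4586, did not pass the threshold either. The antisense RNA CR44690, which overlaps Cyp4d2, was at 4.41 and 5.59 TPM in males and 8.92 and 5.64 TPM in females. Cyp4ae1, another P450 gene 279 bp from Cyp4d2, was at 25.6 and 30.4 TPM in males and 15.1 and 14.3 TPM in females, and the antisense RNA CR45479, 151 bp away, was at 4.53 and 6.60 against 1.49 and 0.624 TPM. None of the 3 passed the threshold (limma adjusted p = 0.930 for CR44690, 0.686 for Cyp4ae1 and 0.457 for CR45479). These neighbours were chosen by position after the called genes were known.

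StringTie also assembled loci from the reads, apart from the reference genes. They come from the same reads, so they are not an independent measure of these genes. comt had an assembled locus in all 4 fru- libraries, at the same TPM as the reference gene. CG32625, brv3, Dok, CG4586 and Cyp4d2 had one in both male fru- libraries and in neither female fru- library, and Trissin the reverse. CG14195 had an assembled locus in none of the 4. In male fru- replicate 1 the loci at CG32625 reached 251 TPM, against 16.8 TPM for the reference gene, and in female fru- replicate 2 the locus at Uros1 reached 174 TPM, against 41.0 TPM.

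**Figure D2:**
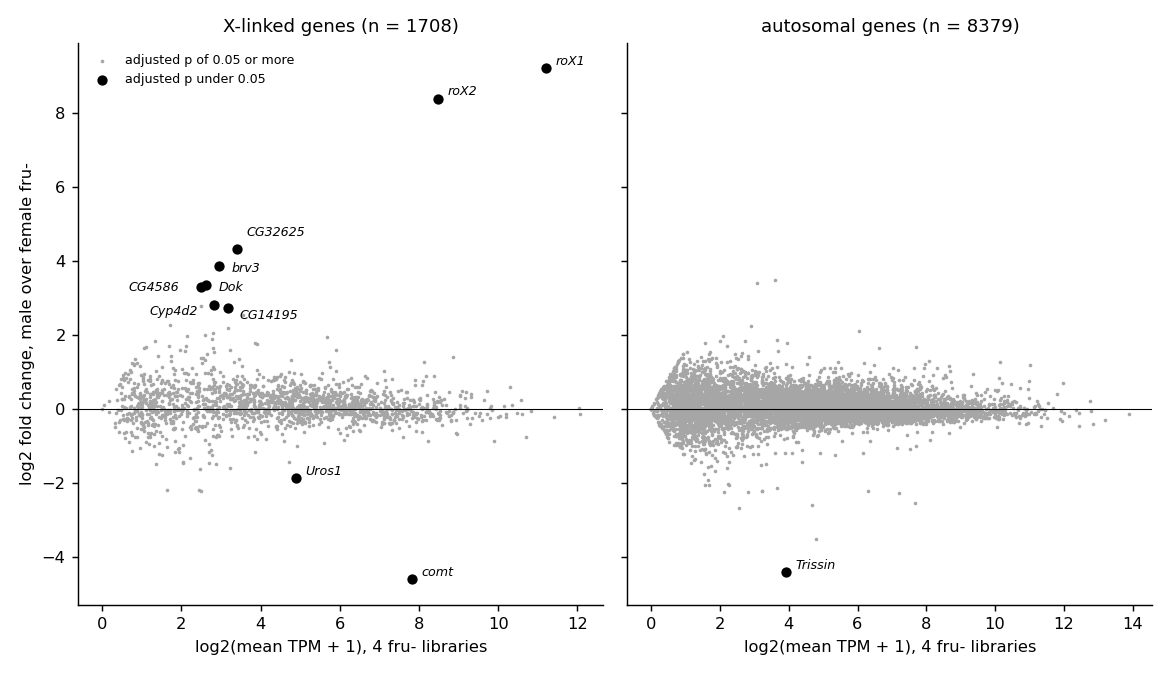
Log2 fold change of males over females in fru- cells against the mean level over the 4 fru- libraries, log2(mean TPM + 1), for X-linked genes (left) and autosomal genes (right). Large black points are the 11 differentially expressed genes, 10 on the X and 1 on an autosome, and the remaining genes (grey) lie around 0 on both.

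Apart from these genes, the X as a whole differed little from the autosomes in its median. The 1708 tested X-linked genes had a median log2 fold change of 0.08, with quartiles of -0.15 and 0.36, and the 8379 autosomal genes had a median of 0.03, with quartiles of -0.16 and 0.27. The median over all tested genes was 0.04. The difference between the X and the autosomes was 0.05 on the log2 scale, with 0.08 in session 1 and 0.02 in session 2, and it was -0.02 in fru+ cells. Among genes with a mean of at least 10 TPM it was again 0.05. It is a description with no test. By arm the autosomal medians lay between 0.01 on 2R and 0.10 on the small chromosome 4, which has 94 tested genes, so chromosome 4 had a higher median than the X. The X took up 14.1% and 14.7% of the TPM of reference genes in male and 13.9% and 14.1% in female fru- libraries. With roX1 and roX2 left out it took up 13.5% and 14.2% in males and 13.9% and 14.1% in females. The sexes overlapped in both cases.

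The spread around that median was wider on the X. Of the X-linked genes, 10 passed the threshold (0.585%) and 174 reached an unadjusted p under 0.05 (10.2%), against 1 (0.0119%) and 331 (3.95%) of the autosomal genes. Both male libraries lay above both female libraries for 434 X-linked genes (25.4%) and 1641 autosomal genes (19.6%), with a background of 20.5% over all tested genes. Both lay below for 248 X-linked (14.5%) and 1100 autosomal genes (13.1%), with a background of 13.3%. A change of more than 1 on the log2 scale was seen in 66 X-linked genes (3.86%) toward males and 28 (1.64%) toward females. On the autosomes it was seen in 139 (1.66%) and 79 genes (0.943%), and over all tested genes in 2.03% and 1.06%.

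By the rule for named genes, 5 further X-linked genes in each direction were taken, none of which passed the threshold. Toward males these were Axs, nod, CG1529, CCT6 and the antisense RNA CR45009. Axs, known for chromosome segregation in female meiosis, was listed at 14.4 and 12.9 TPM in male and 3.18 and 1.46 TPM in female fru- cells (log2 fold change 2.19, limma adjusted p = 0.0727). nod, a kinesin-like protein of the same process, was listed at 7.10 and 13.6 TPM in males and 1.88 and 1.36 TPM in females (male over female 2.06 on the log2 scale, limma adjusted p = 0.165). It lies 340 bp downstream of roX2 on the same strand, and the part of roX2 transcripts in its level was not tested. The kinetochore gene Ndc80, chosen after its values were seen, was at 2.93 and 6.06 TPM in males and 0 and 0.218 TPM in females (limma adjusted p = 0.167). Without female fru- replicate 1, Axs passed the threshold (limma adjusted p = 0.0412).

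CR45009 (X:23007672-23009452, plus strand) was listed at 193 and 177 TPM in male and 103 and 79.9 TPM in female fru- cells (log2 fold change 1.02, limma adjusted p = 0.156), and the gene it overlaps leaned the same way. FucTC, a fucosyltransferase gene on the opposite strand, was at 10.3 and 8.49 TPM in males and 1.54 and 3.42 TPM in females. Reads in the overlap cannot be assigned to either gene, so FucTC is not a separate observation. In fru+ cells CR45009 was at 187 and 172 TPM in males and 43.2 and 47.3 TPM in females, with like levels in males of the 2 kinds of cell and a lower level in female fru+ cells. The difference between the 2 sex differences did not pass the threshold (limma unadjusted p = 0.00426, adjusted p = 0.999). CG1529 was at 8.87 and 10.6 TPM in male and 2.46 and 1.46 TPM in female fru- cells (log2 fold change 1.87, limma adjusted p = 0.17). CCT6, a subunit of the cytosolic chaperonin, was at 90.1 and 108 against 62.3 and 47.7 TPM (log2 fold change 0.84, limma adjusted p = 0.382).

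Toward females the rule named CG18508, CG14798, CR34335, Vsp37A and CG4593. CG18508 was listed at 204 and 220 TPM in male and 375 and 399 TPM in female fru- cells (log2 fold change -0.87, standard error 0.16, limma adjusted p = 0.159), and at 205 and 239 against 390 and 444 TPM in fru+ cells. CG14798 was at 15.5 and 11.01 TPM in male and 34.2 and 39.98 TPM in female fru- cells (log2 fold change -1.43, limma adjusted p = 0.159). The abundant noncoding RNA CR34335 was at 767 and 582 TPM in males and 1394 and 1081 TPM in females, and it lies within DIP-alpha on the same strand. The ESCRT-I subunit gene Vsp37A was at 222 and 200 against 314 and 339 TPM, and CG4593 at 28.1 and 36.7 against 54.3 and 71.4 TPM. The rule admitted only genes whose male and female libraries did not overlap.

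The fold changes were then set beside those in fru+ cells. The fru- fold changes use only the fru- libraries, but all 8 libraries entered the filter and the variance behind each p, so the choice of genes was not independent of the fru+ libraries. Of the 174 X-linked genes with an unadjusted p under 0.05 in fru- cells, 151 (86.8%) had a fold change of the same sign in fru+ cells, and 78 of these also had an unadjusted p under 0.05 there. Of the 331 autosomal genes it was 224 (67.7%) and 20. Over all tested genes the same sign was seen in 65.5% of X-linked and 55.9% of autosomal genes. The median log2 fold change of the 118 X-linked genes that leaned to males was 0.99 in fru- and 0.50 in fru+ cells, and that of the 245 autosomal ones was 0.85 and 0.14. For genes that leaned to females it was -0.88 and -0.64 for the 56 on the X, and -1.06 and -0.10 for the 86 on the autosomes. These genes were chosen by their fru- values, which enlarges the fru- medians. The smaller fru+ medians therefore do not show a weaker sex difference in fru+ cells. The share of the same sign stayed higher on the X when each fru- library was left out in turn, at 73.9% to 87.6% on the X against 56.0% to 69.1% on the autosomes, with the lowest X value without female fru- replicate 2 and the lowest autosomal value without male fru- replicate 2. These shares are a description, since fru+ and fru- cells of a replicate came from the same brains.

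**Figure D3:**
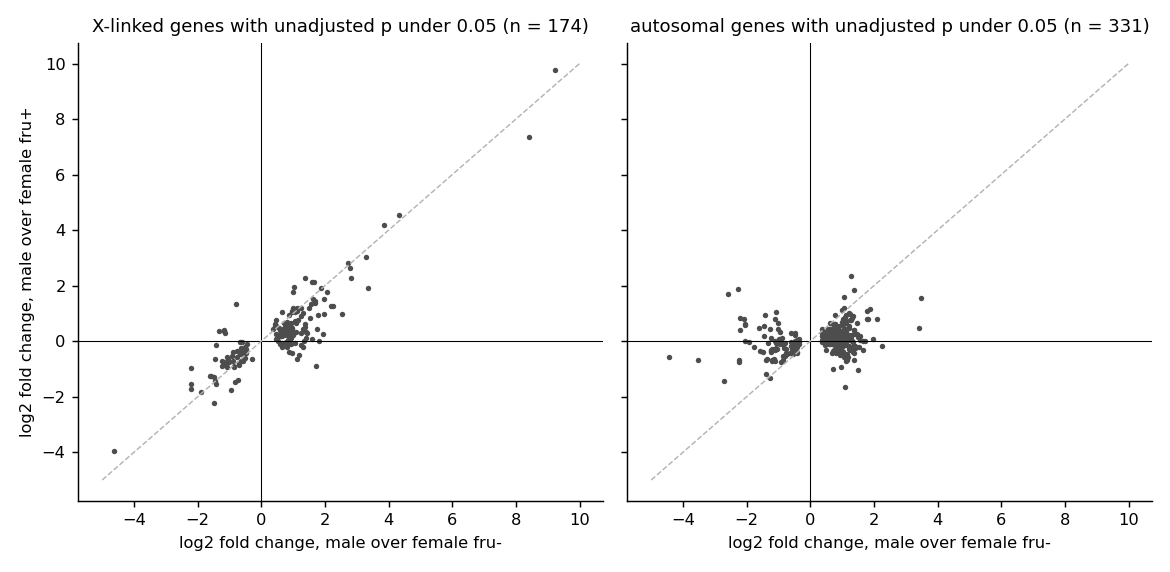
Log2 fold change of males over females in fru+ cells (vertical) against that in fru- cells (horizontal), for the genes with an unadjusted p under 0.05 in fru- cells; the dashed line marks equal values. Of 174 X-linked genes (left), 86.8% had the same sign in both and many lie along the dashed line, and of 331 autosomal genes (right), 67.7% had the same sign and most lie near 0 on the vertical axis.

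On the autosomes, Trissin was the gene called. It encodes a neuropeptide with internal disulfide bonds and lies at 3R:15484730-15485396 on the minus strand. Trissin was listed at 0.455 and 0.244 TPM in male, against 29.1 and 26.9 TPM in female fru- cells, which gave a log2 fold change of -4.43 with an SE of 0.37 (limma adjusted p = 0.000713). In fru+ cells of both sexes it was about an order of magnitude higher than in female fru- cells, with 243 and 268 TPM in males and 234 and 617 TPM in females. The sex difference in fru- cells minus that in fru+ cells was -3.86 (standard error 0.52, limma unadjusted p = 2.63e-05, adjusted p = 0.266), and it did not pass the threshold. It passed with a pseudocount of 0.1 and without female fru+ replicate 2, and over the 15 alternatives the limma adjusted p ran from 0.00612 to 1.00. Of other genes higher in fru+ cells, Dsk, Hug, Mip, CCAP, Trh and fru had their highest fru- value in female fru- replicate 2. Ms had its highest in female fru- replicate 1, and Trissin was at like levels in both. Dsk and Hug were named after their values were seen. The part of fru+ cells in the female fru- libraries was not tested.

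The autosomal genes next in order did not pass the threshold. The neuropeptide gene AstCC (2L) was listed at 5.82 and 1.77 TPM in male and 42.0 and 57.5 TPM in female fru- cells, which gave a log2 fold change of -3.53 with an SE of 0.53 (limma adjusted p = 0.0554), and at 1.10 and 0 against 0.760 and 2.08 TPM in fru+ cells. AstCC lies just outside the threshold, as the P450 gene Cyp4d2 lies just inside it. The adducin gene hts was at 152 and 114 TPM in males and 196 and 363 TPM in females (limma adjusted p = 0.614), and passed only without female fru- replicate 1 among the alternatives run (limma adjusted p = 0.0416). The antisense RNA CR45198 on chromosome 4 was at 11.7 and 13.2 against 21.0 and 27.5 TPM. Toward males, the first was Stacl (2R), an adaptor of the STAC family, at 90.2 and 122 TPM in males and 24.5 and 23.0 TPM in females (log2 fold change 2.1, standard error 0.33, limma adjusted p = 0.0674). The phosphodiesterase gene Pde8 was at 29.5 and 16.9 against 5.09 and 6.56 TPM (log2 fold change 1.78, limma adjusted p = 0.17). The synapsin gene Syn was at 156 and 174 against 83.7 and 102 TPM (log2 fold change 0.82, limma adjusted p = 0.598). The rule also named 2 small RNAs within host genes, Or-CD4 in Uhg5 and snmRNA:128 in Msp300, which cannot be told apart from their hosts here.

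Neuropeptide genes leaned toward females. Of the 41 tested genes of a list of 46, Trissin was called, 30 (73.2%) had a fold change below 0, beside 44.9% of all tested genes, and the median log2 fold change was -0.29, beside 0.04 over all tested genes. At an unadjusted p under 0.05 there were 6 lower in males (14.6%, beside 1.4% of all tested genes), Trissin, AstCC, Nplp3, Ms, CCAP and Mip, and 1 higher (2.44%, beside 3.59%), AstA. In 13 genes (31.7%) both female libraries lay above both male ones, with a background of 13.3%. The list also holds ntc, which encodes an F-box protein and no peptide.

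The genes differed in how alike the replicates were. Ms, which encodes myosuppressin, was listed at 194 and 192 TPM in male and 444 and 270 TPM in female fru- cells (log2 fold change -0.84, limma adjusted p = 0.911). Nplp3 was at 58.2 and 36.1 against 149 and 347 TPM (log2 fold change -2.28, limma adjusted p = 0.614). AstA, allatostatin A, went the other way, at 435 and 203 TPM in males and 123 and 69.9 TPM in females (male over female 1.67 on the log2 scale, limma adjusted p = 0.717). The libraries of the 2 sexes did not overlap in these 3 genes, nor in Mip and CCAP. Mip was at 96.6 and 110 TPM in males and 118 and 409 TPM in females, CCAP at 0 and 0 against 0.348 and 4.65 TPM, and Hug at 5.53 and 4.33 against 1.02 and 59.7 TPM. In Mip, CCAP, Hug and Dsk the highest value was that of female fru- replicate 2. These genes were lower in female fru- replicate 1, where Mip and CCAP were still above both male libraries and Hug was below both. Without female fru- replicate 1 the median log2 fold change of the neuropeptide genes was -0.38, and without female fru- replicate 2 it was -0.15.

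**Figure D4:**
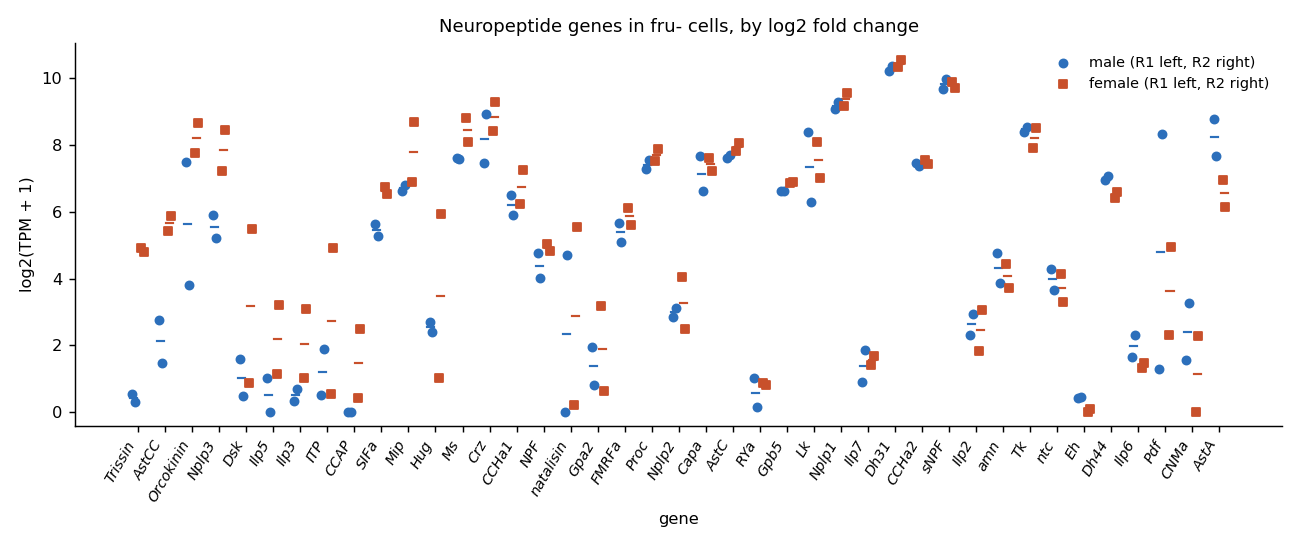
Level of the 41 tested neuropeptide genes in fru- cells, as log2(TPM + 1), ordered by log2 fold change from lower in males (left) to higher in males (right); circles are male and squares female libraries, replicate 1 left of replicate 2, and bars are means of 2. Trissin and AstCC stand apart at the left with both replicates, while Dsk, ITP, Hug and Pdf differ more between replicates of a sex than between the sexes.

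No gene of the sex determination pathway was called in total level. Of 13 tested by limma, 1 (7.69%), dsx, was higher in males at an unadjusted p under 0.05, beside 3.59% of all tested genes. dsx, the transcription factor with male and female forms, was listed at 0.758 and 4.64 TPM in male and 0.317 and 0.255 TPM in female fru- cells (log2 fold change 1.29, limma unadjusted p = 0.0334, adjusted p = 0.928). Most of this came from male fru- replicate 2, and without it the log2 fold change was 0.45. Sxl, the RNA-binding switch gene, was at 171 and 95.1 TPM in males and 86.0 and 123 TPM in females, tra at 93.7 and 89.0 against 85.3 and 88.9 TPM, and tra2 at 60.7 and 70.6 against 54.9 and 54.3 TPM. fru was at 8.19 and 7.39 TPM in male and 3.75 and 15.1 TPM in female fru- cells. The values sum over the splice forms of a gene, so they do not show the sex-specific splicing of Sxl, tra, dsx and fru.

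Neuronal and mushroom body genes leaned toward males. Among the 10 neuronal markers none was called. nSyb alone had an unadjusted p under 0.05 (log2 fold change 0.75, limma adjusted p = 0.614). That is 10% of the markers, beside 3.59% of all tested genes in the same direction. The median log2 fold change was 0.44, beside 0.04 over all tested genes. The median depended on female fru- replicate 1. Without that library it was 0.04, and without female fru- replicate 2 it was 0.86. The sodium channel gene para was at 79.9 and 68.0 TPM in males and 18.6 and 67.0 TPM in females, and the ATPase subunit gene nrv3 at 5504 and 4134 against 1892 and 4630 TPM. nSyb differed in both sessions.

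Kenyon cells, the intrinsic neurons of the mushroom body, are in the fru- cells by the design of the sort. Of the 11 Kenyon cell genes, 10 had a fold change above 0, beside 55.0% of all tested genes, and none was called. The median was 0.47, beside 0.04 over all tested genes. At an unadjusted p under 0.05 there were 2, both higher in males (18.2%, beside 3.59% of all tested genes). The transcription factor gene ey was at 53.0 and 48.4 TPM in male and 30.8 and 31.0 TPM in female fru- cells (log2 fold change 0.69, limma unadjusted p = 0.0100, adjusted p = 0.782). The kinase gene Pka-C1 was at 402 and 323 against 74.9 and 288 TPM (log2 fold change 1.29, limma adjusted p = 0.928), with 0.32 without female fru- replicate 1 and 2.25 without female fru- replicate 2. toy, by contrast, was at 276 and 268 against 271 and 237 TPM, and sNPF at 806 and 999 against 942 and 824 TPM. Without female fru- replicate 1 the median was 0.21.

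The 13 glial markers had a median of 0.11 and none with an unadjusted p under 0.05. The astrocyte gene alrm was at 144 and 90.0 TPM in male and 188 and 33.1 TPM in female fru- cells, and glutamine synthetase 2 (Gs2) at 990 and 789 against 1241 and 328 TPM, with the male values between the 2 female ones. Leaving out 1 female library turned the median, to 0.64 without replicate 1 and to -0.49 without replicate 2.

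The size of a gene moved with the sex difference. Exonic length was known for 9486 of the tested genes (93.8%), which were split by length into 5 bins of like size. The median log2 fold change was -0.05 in the shortest bin, up to 918 bp, and 0.27 in the longest, from 3889 bp. Both sessions had the highest median in the longest bin, 0.28 in session 1 and 0.20 in session 2. X-linked genes had a median exonic length of 2086.5 bp, against 1860 bp on the autosomes, and within the bins the median of the X minus that of the autosomes ran from -0.00294 in the longest genes to 0.0712 in the second bin. The neuronal gene Appl, at 695 and 559 TPM in males and 118 and 479 TPM in females, and the RNA-binding protein gene Imp, at 75.4 and 48.9 against 7.37 and 77.3 TPM, were lowest in female fru- replicate 1, and both were called without female fru- replicate 2. The Shaker channel gene Sh, at 372 and 421 against 166 and 164 TPM, was low in both female replicates (log2 fold change 1.25, limma adjusted p = 0.428), and passed the threshold when either female fru+ library was left out. The part of RNA quality in these differences was not tested. The medians of the gene lists were set beside all tested genes, not beside genes of like length. Appl, Imp, Sh and para were named after their values were seen.

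**Figure D5:**
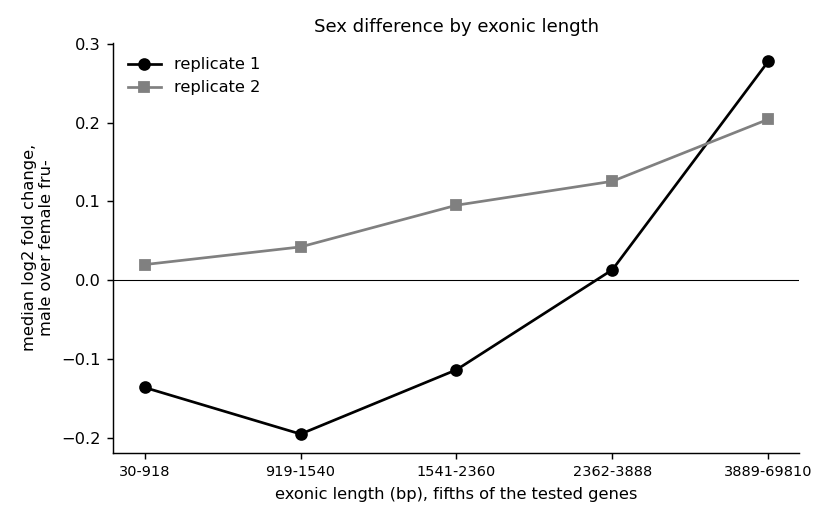
Median log2 fold change of males over females in fru- cells (vertical) in 5 bins of the tested genes by exonic length in bp (horizontal), from replicate 1 (black circles) and replicate 2 (grey squares). Both lines are highest in the longest bin, at 0.28 and 0.20, and replicate 1 is below 0 in the 3 shortest bins.

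The remaining lists held few differences. Of the 15 tested genes of transmitter production and transport none was called. At an unadjusted p under 0.05, 1 was lower in males (6.67%, beside 1.4% of all tested genes). This was Trh, the tryptophan hydroxylase of serotonin neurons, at 32.2 and 29.7 TPM in male and 38.3 and 84.7 TPM in female fru- cells (log2 fold change -0.86, limma unadjusted p = 0.0169, adjusted p = 0.867). Among the alternatives run it was called only without female fru- replicate 1 (log2 fold change -1.42, limma adjusted p = 0.0351), and without female fru- replicate 2 the log2 fold change was -0.30. Gad1, the enzyme of GABA synthesis, was at 2977 and 3260 against 2409 and 3291 TPM, and VGlut, the glutamate transporter of vesicles, at 252 and 238 against 233 and 242 TPM. The clock peptide gene Pdf was at 1.46 and 318 against 3.96 and 29.5 TPM, so it differed more between the sessions than between the sexes. None of the 10 clock genes or the 9 activity-regulated genes had an unadjusted p under 0.05.

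Heat shock genes were higher in session 1. Summed over 14 genes the level was 43942 and 12255 TPM in male and 37136 and 21756 TPM in female fru- cells, higher in replicate 1 in both sexes, and none was called between the sexes. Hsp26 alone was at 10341 and 3231 TPM in males and 9466 and 6329 TPM in females.

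Many markers of tissues around the brain were low, but not all. The yolk protein gene Yp2, made in the female fat body, was at 0.453 and 1.43 TPM in male and 11.2 and 5.32 TPM in female fru- cells (log2 fold change -2.23, limma unadjusted p = 0.000832, adjusted p = 0.280). Of the 13 genes of the sex-biased head and fat body list in the tables, 9 were under 1 TPM in all 4 libraries, and 6 of these were at 0. The muscle gene Mlc1 was at 0.486 and 0 TPM in males and 5.30 and 1.77 TPM in females (male over female -1.78 on the log2 scale, limma adjusted p = 0.919), and the 8 muscle genes summed to 3.52 and 3.24 TPM against 16.8 and 5.69 TPM. The 12 photoreceptor genes summed to 89.6 and 109 TPM against 83.8 and 98.0 TPM, of which norpA, which neurons of the brain also express, made up most. The rhodopsin gene ninaE was at 0.973 and 17.4 TPM in males and 9.40 and 17.1 TPM in females. Arr2 was at 5.10 and 10.1 against 12.6 and 5.19 TPM. The hemocyte genes summed to 62.1 and 84.4 TPM in males and 89.8 and 57.4 TPM in females. Hml, NimC1, eater and srp were under 1 TPM throughout, and the other members were not. Pxn was at 36.6 and 43.2 TPM in males and 31.2 and 31.2 TPM in females, and crq at 13.3 and 20.7 against 35.3 and 14.8 TPM. Col4a1 was at 7.63 and 12.8 against 15.6 and 8.54 TPM, and vkg at 4.49 and 7.67 against 7.63 and 2.59 TPM. The germline genes summed to at most 5.49 TPM. All 12 genes of the Y chromosome list were under 1 TPM in every fru- library and 10 were at 0. Summed over all genes of the Y in the tables, the level was 1.11 and 0.764 TPM in male and 0.390 and 0.263 TPM in female fru- libraries.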

How the data were processed

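RNA from sorted fru- and fru+ cells of male and female central brains was sequenced by the study, with 2 libraries of each. Per the labels and the methods, the authors trimmed the paired reads, aligned them to dm6 with HISAT2, removed duplicates with Picard and ran StringTie 2.1.1 on each unstranded, poly-A selected library. The deposited tables give for each gene a coverage, which the authors did not scale for depth, an FPKM, scaled by the authors per kilobase and library size, and a TPM. The authors' TPM, a signal scaled to the library, was used for every comparison. The TPM of the 17137 reference genes was used, with rows of one gene summed, and loci assembled from the reads were left out except for the called genes. Duplicates were removed without molecular identifiers and multimapping reads were dropped, which can lower repeated genes such as Hsp70.

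Values were compared as log2(TPM + 1) with limma 3.58.1 in R 4.3.3, fitting 4 group means to the 8 libraries at once, a variance trend and Benjamini-Hochberg adjustment at 0.05. Genes with at least 1 TPM in at least 2 libraries were tested, 10111 in all. The contrasts were male against female fru- cells, and that difference minus the one in fru+ cells. The medians of the X and the autosomes were compared without a test. Per the study's methods, a replicate number marks a shared sorting session, so the numbers pair the samples. Across genes, the replicate differences of male and female fru- cells correlated with r = 0.06. Those of male fru- cells correlated with r = 0.25 with those of male and of female fru+ cells. Between male and female fru+ cells r was 0.20. For female fru- cells with male and female fru+ cells it was -0.01 and -0.04.

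Named genes were roX1 and roX2, all called genes, the 5 autosomal and 5 further X-linked genes in each direction with the smallest p among those without overlap and with a mean of at least 5 TPM, and from each gene list the members called, with an unadjusted p under 0.05, or with the highest levels. Any measured member of the dosage compensation and sex determination lists could be named. The members and lists were chosen with earlier results of these data known. Genes outside the rule were picked after their values had been seen. These are Dsk, Hug, Nsf2, FucTC, Ndc80, mew, Seipin, para, Sh, Imp, Appl and the other neighbours, and toy, sNPF, nrv3, Gad1 and VGlut as list members. Exonic lengths came from the Ensembl annotation of BDGP6, in which 96 of the 100 named genes have the same span as in the files. The fit was tested on simulated data. Alternatives were a pseudocount of 0.1, no filter, only genes above a mean of 10 TPM, scaling by median-of-ratios over all or autosomal genes, only the 4 fru- libraries, the replicate block, no variance trend and each library left out. Added after the data were seen were the block with only the 4 fru- libraries, bins of length and the assembled loci. Tables and figures used Python 3.11.15, pandas 2.3.3 and matplotlib 3.10.9.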

Additional observations from a re-analysis of the deposited data

How the results depend on the processing

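The count of 11 genes between male and female fru- cells was 6 with a mean above 10 TPM and with only the 4 fru- libraries, and 3 (comt, roX1 and roX2) with only the 4 fru- libraries and the replicate block, a fit that has few residual degrees of freedom. Leaving out 1 library gave 6 to 18 genes. With the replicate block in the fit to all libraries it was 9, all among the 11, and the block changed no other call than those of CG14195 and Cyp4d2. The other alternatives gave 8 to 11. comt, roX1 and roX2 were called under all 17 alternatives, while CG14195 passed in 3 and Cyp4d2 in 1 of 16. Trissin did not pass without a filter (limma adjusted p = 0.0828). No fold change of the 11 called genes turned its direction under the alternatives run.

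For the difference between the sex differences in fru- and fru+ cells, 0 genes were called by limma, also with the replicate block. It was 1 with a pseudocount of 0.1 (Trissin), and leaving out 1 library gave 0 to 2. The median of the X minus that of the autosomes kept its sign, and ran from 0.0257 to 0.0860 when a fru- library was left out. The median over all tested genes moved to -0.01 with median-of-ratios scaling, to 0.14 without male fru- replicate 1 and to -0.05 without male fru- replicate 2. Without counts, low levels and listed zeros carry no interval.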
